A study of Mus musculus with 18 samples.

Results

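The 10 genes described here encode the Notch receptors Notch1, Notch2, Notch3 and Notch4, the ligands Jag1, Jag2 and Dll4, and the effectors Hey1, Hey2 and Heyl, and they were followed across mouse lung in normoxia and chronic hypoxia. They were taken by gene symbol from the deposited table, which holds 23356 features. All 10 were found, and all 10 were among the 15388 genes that passed the filter on low counts. Whole lung of male C57BL/6 mice was sequenced after 4 weeks in normoxia, where inspired oxygen was about 150 mmHg, or in hypoxia, at the air pressure of 18000 feet, where it was about 70 mmHg. The mice entered at 8 to 12 weeks of age and are labelled as 12 to 16 weeks old. The 6 groups of 3 libraries combined each exposure with wild type, β-arrestin 1 -/- or β-arrestin 2 -/- mice, the last 2 genotypes lacking, by their labels, an adaptor protein of activated G protein-coupled receptors. The labels do not say how either deletion was made, and they do not tie each library to a separate animal. The p-values therefore reflect how far these libraries spread, which may be technical. RNA came from about 30 mg of frozen lung, and in such bulk tissue fewer cells of a type and less RNA per cell cannot be told apart.

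Notch receptors are single-pass membrane proteins that are cut when a Jagged or Delta-like ligand on a neighbouring cell binds them. The freed intracellular domain enters the nucleus, joins the DNA-binding protein RBPJ and switches on genes such as the Hey and Hes repressors. In blood vessels Notch1, Notch4 and Dll4 are best known from endothelial cells and arterial identity, and Notch3 from pericytes and vascular smooth muscle cells, where it is needed for vessel wall maturation.

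The stretches before the start sites of 4 members are shown because these 4 genes had the largest increases with hypoxia in the line labelled β-arrestin 2 -/-, and Hey2 rose in each genotype. Each is the 250 bases before the RefSeq start (GRCm38.p6), written 5′ to 3′ on the strand of the gene. Capitals mark matches to TGGGAA, the core of RBPJ sites, or to ACGTG, the core of hypoxia response elements, which were searched on both strands and do not overlap each other here.
Hey2 (chr10:30842784-30843033, minus strand): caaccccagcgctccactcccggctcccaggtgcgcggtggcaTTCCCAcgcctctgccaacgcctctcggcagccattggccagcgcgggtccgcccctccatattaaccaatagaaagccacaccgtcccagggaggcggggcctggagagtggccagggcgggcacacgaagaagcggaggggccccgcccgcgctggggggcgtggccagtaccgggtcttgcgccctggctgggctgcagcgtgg
Notch3 (chr17:32166891-32167140, minus strand): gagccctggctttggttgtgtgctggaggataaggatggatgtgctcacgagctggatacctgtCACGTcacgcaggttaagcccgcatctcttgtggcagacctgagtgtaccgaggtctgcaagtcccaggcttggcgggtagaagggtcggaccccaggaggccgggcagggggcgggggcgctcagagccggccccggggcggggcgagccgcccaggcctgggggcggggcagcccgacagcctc
Jag2 (chr12:112929496-112929745, minus strand): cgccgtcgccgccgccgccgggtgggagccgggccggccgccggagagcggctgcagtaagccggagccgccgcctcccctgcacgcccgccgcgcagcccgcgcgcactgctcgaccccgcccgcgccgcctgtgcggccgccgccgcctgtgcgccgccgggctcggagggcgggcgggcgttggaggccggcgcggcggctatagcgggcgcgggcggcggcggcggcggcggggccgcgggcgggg
Notch4 (chr17:34564045-34564294, plus strand): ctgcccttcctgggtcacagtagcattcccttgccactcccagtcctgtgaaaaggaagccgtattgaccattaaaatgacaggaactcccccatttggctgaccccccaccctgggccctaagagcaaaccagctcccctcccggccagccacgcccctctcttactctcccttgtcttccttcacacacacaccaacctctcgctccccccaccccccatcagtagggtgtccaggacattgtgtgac
RefSeq entries were matched for 8 of the 10 members. The Hey2 stretch holds TGGGAA on its opposite strand, written TTCCCA, with its last base 202 bases before the start, and was the 1 stretch of 8 with this word. ACGTG was found in the Notch3 stretch, again on the opposite strand, written CACGT, 182 bases before the start. Of 32851 mouse promoter windows of 250 bases, 21.6% hold TGGGAA and 16.6% hold ACGTG, so such a match is common. The RefSeq start of Notch3 lies outside the span that the deposited table gives it. The Jag2 and Notch4 stretches hold neither word. Their G and C content was 87.2% for Jag2, 71.6% for Hey2, 68.8% for Notch3 and 58.4% for Notch4.

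All 10 members are protein-coding genes. On mm10 the deposited table places Notch1 on chromosome 2 from 26457902 to 26503822, Jag1 on 2 from 137081451 to 137116520 and Dll4 on 2 from 119321199 to 119335666. Notch2 lies on chromosome 3 from 98013538 to 98150367 and Hey1 on 3 from 8663359 to 8667038, and Heyl on 4 from 123233556 to 123249870. Hey2 lies on chromosome 10 from 30832359 to 30842783, Jag2 on 12 from 112908590 to 112929495, and Notch3 and Notch4 on 17. In GENCODE M21, exons of 4 members share bases with another gene: Notch1 with 0610009E02Rik (1068 bases) and Gm13568 (414), Notch2 with Gm42820 (541), Notch3 with Gm17276 (488) and Dll4 with Gm14207 (214). Reads from these bases cannot be told apart by strand with this kit.

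Library totals ran from 16806806 to 25980876 estimated fragments. Arrb1, which encodes β-arrestin 1, stood in the β-arrestin 1 -/- libraries at 22.1% of the wild type level in normoxia and 23.8% in hypoxia, with no overlap. In the libraries labelled β-arrestin 2 -/-, Arrb1 was also lower than wild type in normoxia, at 36.9 against 60.6 FPKM with no overlap. The log2 difference was -0.70 ± 0.12 (SE, edgeR adjusted p = 0.00435) in normoxia and -0.02 ± 0.12 (adjusted p = 0.986) in hypoxia. The hypoxia responses of Arrb1 differed by 0.69 ± 0.17 (adjusted p = 0.0276). Arrb2, which encodes β-arrestin 2, did not show a lower level where the label is β-arrestin 2 -/-. Its log2 difference from wild type was 0.33 ± 0.20 in normoxia (SE, adjusted p = 0.256) and -0.18 ± 0.20 in hypoxia (adjusted p = 0.821). Which part of Arrb2 was deleted is not given in the labels, so these libraries are called "labelled β-arrestin 2 -/-", or in short the labelled line, throughout. Every adjusted p is from edgeR's quasi-likelihood test over 15388 genes with a threshold of 0.05, and log2 changes carry their SE. A tissue score of heart muscle, club cell and adipocyte genes separated the wild type groups: -2.41 to -1.22 in normoxia and 0.61 to 1.03 in hypoxia. The score is the mean log2 level of these lists in a library, relative to all 18 libraries. Whether it followed the part of lung that was taken or changes within it was not tested. The score ran from -0.53 to 2.07 in labelled β-arrestin 2 -/- normoxia and from 0.79 to 1.28 in its hypoxia. In β-arrestin 1 -/- mice it ran from -0.80 to 0.96 in normoxia and from -1.56 to 1.06 in hypoxia. All wild type normoxia scores thus lay below those of both other genotypes in normoxia.

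Levels differed widely among the members. In wild type normoxia the effector Hey1 was highest at 69.1 ± 10.1 FPKM (SD, n = 3; fragments scaled to gene length and library depth, a level per length), followed by the ligand Dll4 at 46.2 ± 6.66 and the receptor Notch4 at 44.1 ± 2.30, which overlapped each other. Notch1 followed at 27.7 ± 0.82 and Notch3 at 20.4 ± 1.74. Jag1 (15.8 ± 1.60), Notch2 (15.6 ± 0.58), Jag2 (14.5 ± 2.05) and Heyl (12.2 ± 2.91) lay close together, and these neighbours did not differ beyond their spread. Hey2 was lowest at 2.26 ± 0.52 FPKM and rested on 99 to 448 fragments per library over the 18 libraries, whereas the lowest count of any other member was 669.

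**Figure D1:**
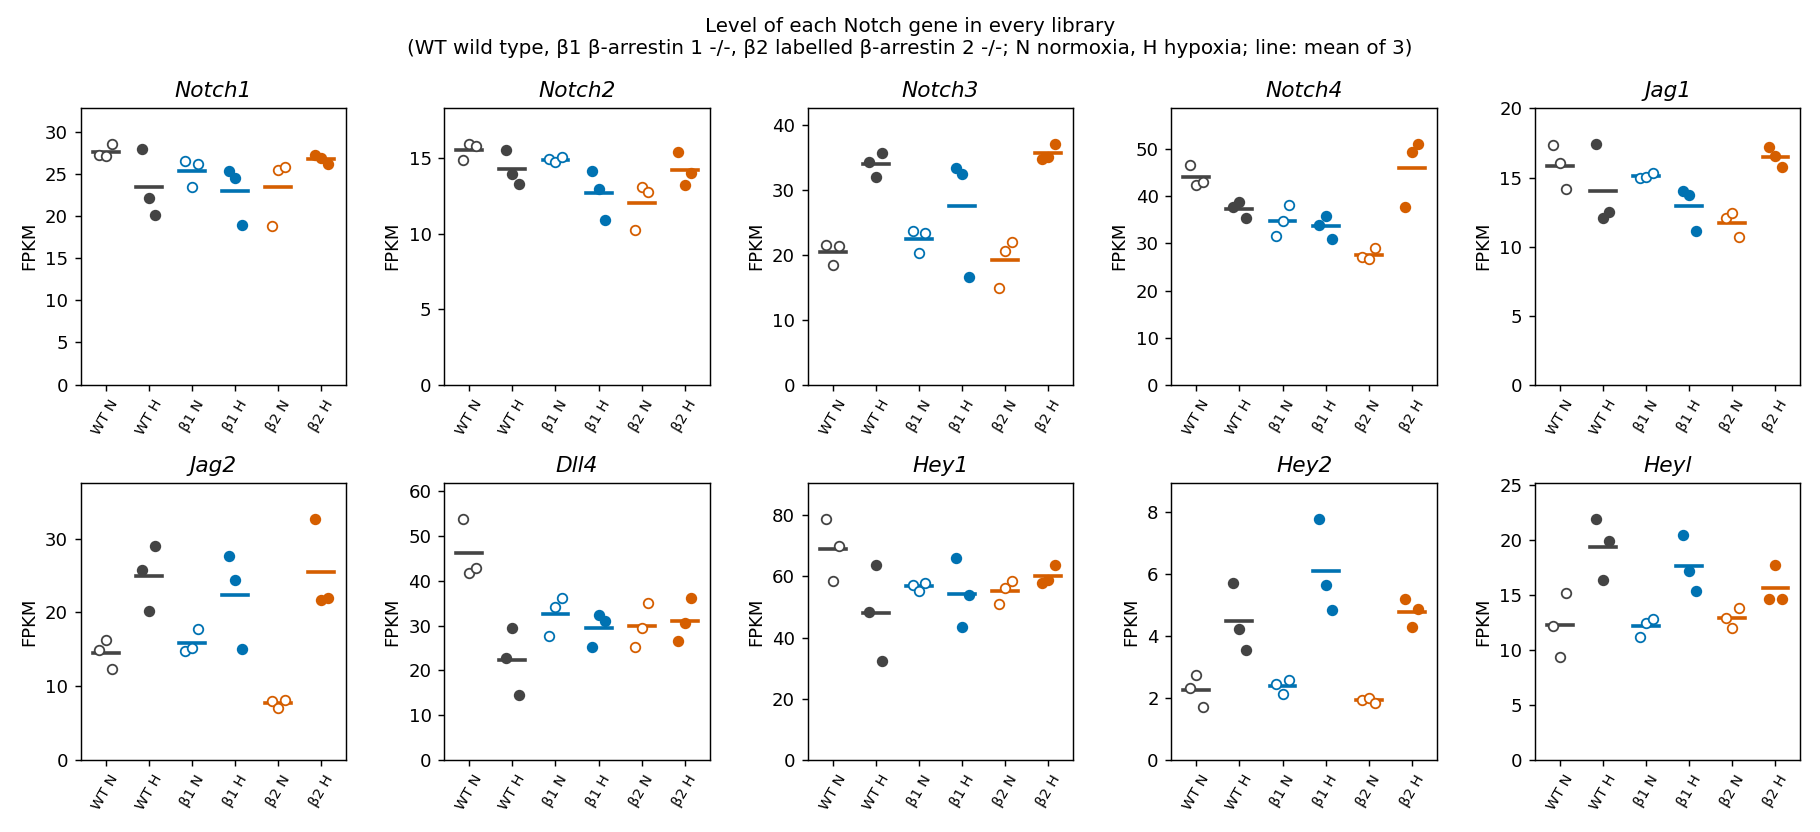
Level (FPKM) of each Notch gene in every library, with open points for normoxia, filled points for hypoxia and a line at the mean of 3 libraries. Hey2 in hypoxia sits above its own normoxia in each genotype, and the 3 Jag2 points of labelled β-arrestin 2 -/- normoxia, at 7.01 to 8.16, are the lowest of the 18.

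Of the 4 receptors, Notch3, a receptor of mural cells, rose with hypoxia in wild type and in the labelled β-arrestin 2 -/- line. Its wild type libraries stood at 21.5, 18.4 and 21.3 FPKM in normoxia and 34.2, 32.0 and 35.8 in hypoxia. Those of the labelled line stood at 14.9, 20.6 and 22 in normoxia and 34.7, 35.1 and 37.1 in hypoxia. Neither pair of groups overlapped. In β-arrestin 1 -/- mice the values were 23.7, 20.2 and 23.3 FPKM in normoxia and 33.4, 32.4 and 16.5 in hypoxia, where the last library, replicate 2, lay below all of its normoxia libraries. The log2 change was 0.74 ± 0.20 in wild type (adjusted p = 0.0418), 0.88 ± 0.20 in the labelled β-arrestin 2 -/- line (adjusted p = 0.00624) and 0.30 ± 0.19 in β-arrestin 1 -/- mice (adjusted p = 0.428). That library had the lowest total of the 18, and without it the β-arrestin 1 -/- change was 0.56 (adjusted p = 0.0348). The wild type call was made in 5 of the 18 fits that each left out 1 library and was lost without any 1 of the 6 wild type libraries, or without any 1 of 7 libraries of the other genotypes (adjusted p of 0.00235 to 0.195 over the 18 fits), while the change itself stayed between 0.67 and 0.78. The labelled β-arrestin 2 -/- call was made in 18 of 18.

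Notch4, a receptor of endothelial cells, did not pass the test with hypoxia in wild type and rose in the labelled β-arrestin 2 -/- line. Its wild type libraries stood at 46.7, 42.5 and 43.1 FPKM in normoxia and 37.8, 38.9 and 35.4 in hypoxia. The labelled line stood at 27.1, 26.7 and 29.1 in normoxia and 37.8, 49.4 and 51.2 in hypoxia. The wild type hypoxia libraries all lay below those of normoxia, and the order was the opposite in the labelled β-arrestin 2 -/- line, again with no overlap. The log2 change was -0.23 ± 0.11 in wild type (adjusted p = 0.245) and 0.72 ± 0.11 in the labelled β-arrestin 2 -/- line (adjusted p = 0.000503). In β-arrestin 1 -/- mice the 2 groups overlapped, at 31.6, 34.7 and 38.3 FPKM in normoxia and 34.0, 35.9 and 30.9 in hypoxia (log2 change -0.04 ± 0.11, adjusted p = 0.867). Ordered by mean, the 6 groups ran from labelled β-arrestin 2 -/- normoxia (27.6 ± 1.3) over β-arrestin 1 -/- hypoxia (33.6 ± 2.53), β-arrestin 1 -/- normoxia (34.8 ± 3.36) and wild type hypoxia (37.4 ± 1.82) to wild type normoxia (44.1 ± 2.30) and labelled β-arrestin 2 -/- hypoxia (46.1 ± 7.29). The lowest group did not overlap any other, the second to the fourth overlapped one another, and so did the top pair. The labelled β-arrestin 2 -/- hypoxia libraries, from 37.8, also overlapped β-arrestin 1 -/- normoxia (up to 38.3) and wild type hypoxia (up to 38.9).

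Notch1 and Notch2, the receptors most widely expressed across tissues, passed the hypoxia test in none of the 3 genotypes. Notch1 stood at 27.7 ± 0.82 FPKM in wild type normoxia and 23.4 ± 4.09 in hypoxia (log2 change -0.23 ± 0.14, adjusted p = 0.372), at 25.4 ± 1.72 and 23.0 ± 3.50 in β-arrestin 1 -/- mice (-0.13 ± 0.14, adjusted p = 0.636), and at 23.4 ± 3.93 and 26.8 ± 0.52 in the labelled β-arrestin 2 -/- line (0.18 ± 0.14, adjusted p = 0.360). Notch2 stood at 15.6 ± 0.58 and 14.3 ± 1.16 in wild type (-0.12 ± 0.11, adjusted p = 0.606), at 14.9 ± 0.17 and 12.7 ± 1.64 in β-arrestin 1 -/- mice (-0.22 ± 0.11, adjusted p = 0.280), and at 12.0 ± 1.57 and 14.2 ± 1.12 in the labelled β-arrestin 2 -/- line (0.22 ± 0.11, adjusted p = 0.134). The hypoxia libraries of both genes in the labelled line lay above all normoxia libraries, although neither gene passed the test. In β-arrestin 1 -/- mice the Notch2 hypoxia libraries, at 10.9 to 14.1 FPKM, lay below all normoxia libraries, at 14.7 to 15.1. In the labelled β-arrestin 2 -/- line the lowest normoxia library of both genes was replicate 0, at 18.9 FPKM for Notch1 and 10.2 for Notch2.

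Among the ligands, Jag2 rose with hypoxia in wild type and the labelled β-arrestin 2 -/- line, with the largest change of any member in the latter. Its wild type libraries stood at 14.9, 16.3 and 12.3 FPKM in normoxia and 25.7, 20.3 and 29.0 in hypoxia. Those of the labelled line stood at 7.97, 7.01 and 8.16 in normoxia and 32.6, 21.7 and 21.9 in hypoxia. The groups did not overlap in either genotype. In β-arrestin 1 -/- mice the values were 14.7, 15.2 and 17.7 FPKM in normoxia and 27.7, 24.3 and 15.1 in hypoxia, and the groups overlapped through the same hypoxia library as for Notch3, replicate 2. The log2 change was 0.79 ± 0.20 in wild type (adjusted p = 0.0375), 1.70 ± 0.21 in the labelled β-arrestin 2 -/- line (adjusted p = 0.000159) and 0.50 ± 0.20 in β-arrestin 1 -/- mice (adjusted p = 0.208). Without β-arrestin 1 -/- hypoxia replicate 2 that last change was 0.72 (adjusted p = 0.0480). The wild type call was made in 12 of 18 fits with 1 library left out. It was lost without any 1 normoxia library, without hypoxia replicates 0 or 2, and without β-arrestin 1 -/- normoxia replicate 1 (adjusted p of 0.0106 to 0.155). Jag2 in the labelled line was called in 18 of 18 (log2 change 1.48 to 1.81).

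Dll4, the Delta-like ligand of endothelial tip cells and arteries, fell with hypoxia in wild type. Its wild type libraries stood at 53.8, 41.7 and 42.9 FPKM in normoxia and 22.9, 29.4 and 14.4 in hypoxia, so every hypoxia library was below every normoxia library. The β-arrestin 1 -/- libraries stood at 27.6, 34.2 and 36.1 in normoxia and 25.3, 32.3 and 31.2 in hypoxia. The labelled β-arrestin 2 -/- libraries stood at 25.2, 29.5 and 35.1 in normoxia and 26.5, 30.6 and 36.1 in hypoxia. Both of these genotypes overlapped between exposures, and their 4 group means, from 29.6 to 32.6, did not differ beyond their spread. The log2 change was -1.05 ± 0.21 in wild type (adjusted p = 0.0102), -0.13 ± 0.21 in β-arrestin 1 -/- mice (adjusted p = 0.774) and 0.04 ± 0.21 in the labelled β-arrestin 2 -/- line (adjusted p = 0.910). The wild type call was lost without normoxia replicate 0 (-0.93, adjusted p = 0.0503) and was made in the other 17 of 18 such fits. Dll4 is the one member whose counts were whole in 0 of 18 libraries. The deposited table places it on a span shared with Gm14207, a transcript on the opposite strand that the library kit cannot tell apart. GENCODE M21 has 214 exon bases in common between them. Gm14207 itself stood at 3.42 ± 0.17 FPKM in wild type normoxia, 1.75 ± 0.32 in wild type hypoxia, and 6.39 ± 0.49 and 1.27 ± 0.36 in the labelled β-arrestin 2 -/- line. With the fragments of both features summed, the wild type change was -1.05 (adjusted p = 0.0092).

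Jag1, a ligand of endothelial and mural cells, rose with hypoxia in the labelled β-arrestin 2 -/- line, where its libraries stood at 12.1, 12.4 and 10.7 FPKM in normoxia and 17.2, 16.5 and 15.8 in hypoxia with no overlap (log2 change 0.48 ± 0.13, adjusted p = 0.0156). That call was lost without hypoxia replicate 0 (adjusted p = 0.0595). In wild type the libraries stood at 17.3, 16.0 and 14.1 in normoxia and 17.4, 12.1 and 12.5 in hypoxia, which overlapped (-0.17 ± 0.13, adjusted p = 0.517). β-Arrestin 1 -/- mice stood at 15.1 ± 0.20 in normoxia and 13 ± 1.58 in hypoxia (SD, n = 3; log2 change -0.21 ± 0.13, adjusted p = 0.391).

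Among the effectors, Hey2, a repressor best known from the heart and arterial endothelium, rose with hypoxia in each of the 3 genotypes. Its wild type libraries stood at 2.32, 2.74 and 1.71 FPKM in normoxia and 5.73, 4.22 and 3.56 in hypoxia. The β-arrestin 1 -/- libraries stood at 2.46, 2.14 and 2.59 in normoxia and 7.78, 5.66 and 4.83 in hypoxia. The labelled β-arrestin 2 -/- libraries stood at 1.95, 2.01 and 1.83 in normoxia and 5.18, 4.29 and 4.86 in hypoxia. All 9 hypoxia libraries lay above all 9 normoxia libraries. The log2 change was 1.00 ± 0.21 in wild type (adjusted p = 0.0124), 1.36 ± 0.21 in β-arrestin 1 -/- mice (adjusted p = 0.00273) and 1.29 ± 0.21 in the labelled β-arrestin 2 -/- line (adjusted p = 0.000877). Hey2 was called in 18 of 18 fits with 1 library left out in each genotype. With only the groups compared in the fit it missed the threshold in wild type (adjusted p = 0.0668) and β-arrestin 1 -/- mice (adjusted p = 0.0639).

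Heyl, a relative of Hey2 known from smooth muscle and pericytes, rose with hypoxia in wild type, from 12.2, 9.32 and 15.1 FPKM to 21.9, 16.3 and 19.9, with no overlap (log2 change 0.67 ± 0.16, adjusted p = 0.0244). The call was lost without wild type normoxia replicates 0 or 1 and without hypoxia replicates 0 or 2 (adjusted p over all 18 fits of 0.00924 to 0.133). Heyl in β-arrestin 1 -/- mice stood at 11.1, 12.4 and 12.8 in normoxia and 20.5, 17.1 and 15.3 in hypoxia. The labelled line stood at 12.9, 12.0 and 13.8 in normoxia and 14.6, 17.7 and 14.6 in hypoxia. Neither pair overlapped, and neither passed the test (0.55 ± 0.16, adjusted p = 0.0713, and 0.27 ± 0.16, adjusted p = 0.225). The β-arrestin 1 -/- change passed without wild type normoxia replicate 1 (adjusted p = 0.0452) or replicate 2 (adjusted p = 0.0473).

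Hey1, the most abundant effector, did not pass the test. It stood at 78.7, 58.5 and 70.0 FPKM in wild type normoxia and 48.4, 63.6 and 32.2 in hypoxia, where replicate 1 overlapped normoxia (log2 change -0.52 ± 0.19, adjusted p = 0.134). Without that hypoxia library the change was -0.78 (adjusted p = 0.0316). It stood at 56.7 ± 1.39 and 54.3 ± 11.3 in β-arrestin 1 -/- mice (-0.05 ± 0.19, adjusted p = 0.914) and at 55.3 ± 3.88 and 60.2 ± 3.22 in the labelled β-arrestin 2 -/- line (0.11 ± 0.19, adjusted p = 0.714).

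The members were chosen with earlier results of these data known. Their counts here and below therefore do not test the pathway against the shares of all genes. Counted together, 5 of the 10 members passed the hypoxia test in wild type, 4 higher (Notch3, Jag2, Hey2 and Heyl) and 1 lower (Dll4). Of all genes tested, 4.76% were called in that comparison, 2.85% higher and 1.92% lower. The members' median log2 change was -0.15, against 0.00 over all genes tested. In β-arrestin 1 -/- mice 1 of 10 was called, Hey2, higher, where 2.95% of all genes were called, 1.84% higher and 1.11% lower, and the medians were -0.05 and 0.02. Hypoxia in the labelled line gave 5 of 10 calls, all higher (Notch3, Notch4, Jag1, Jag2 and Hey2), where 21.9% of all genes were called, 11.1% higher and 10.8% lower, and the medians were 0.37 and -0.04. In that line the hypoxia libraries of 8 members lay above all normoxia libraries, the exceptions being Dll4 and Hey1, and 23.4% of all genes tested separated in that direction. In wild type, where the tissue score separated the groups, 0 of 10 members were called with the score as a covariate, with log2 changes of 0.75 for Notch3, 0.79 for Jag2, -0.84 for Dll4, 1.20 for Hey2 and 0.69 for Heyl (adjusted p of 0.122 to 0.370 by edgeR). The covariate and the exposure cannot be told apart there. With it, the 5 calls of the labelled β-arrestin 2 -/- line and the Hey2 call in β-arrestin 1 -/- mice remained.

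**Figure D2:**
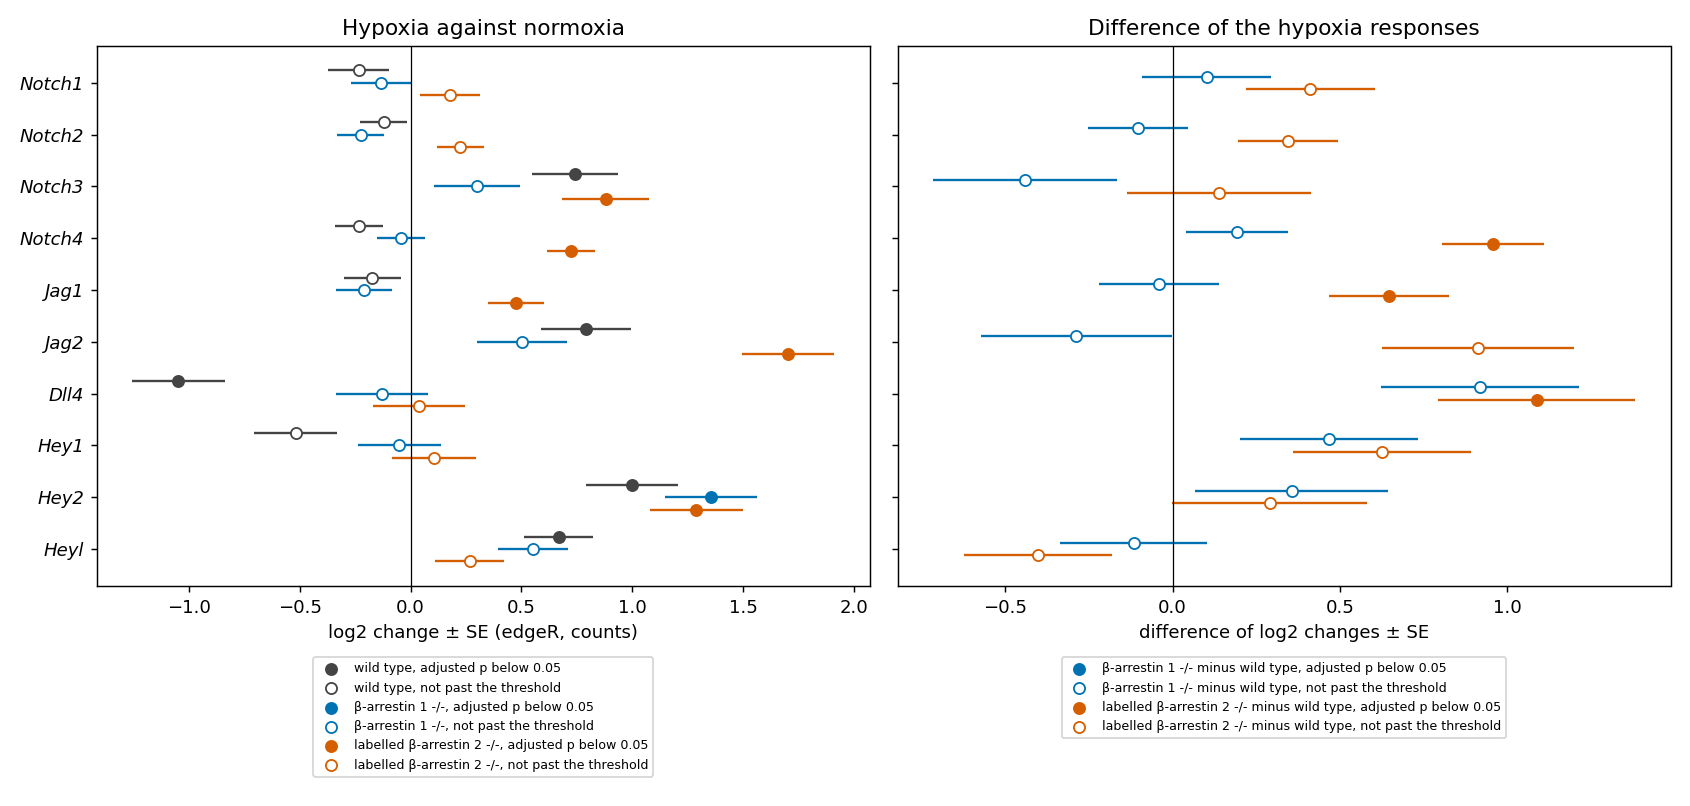
Log2 change with hypoxia in each genotype (left) and the difference of the other genotypes' hypoxia changes from that of wild type (right), each with its SE, from edgeR on counts over all 18 libraries. Filled points passed an adjusted p of 0.05, among them Hey2 in all 3 genotypes on the left and Notch4, Jag1 and Dll4 for the labelled β-arrestin 2 -/- line on the right.

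The genotypes were then compared within each exposure, and these comparisons share all their libraries with those above. Lower levels of the labelled line in normoxia and its rises with hypoxia thus rest on the same 3 normoxia libraries and are not separate results. In normoxia 4 of 10 members were lower in the labelled β-arrestin 2 -/- line than in wild type and 0 were higher, where 9.49% of all genes were called, 5.49% lower and 4.00% higher. These were Jag2 (log2 difference -0.90 ± 0.21, adjusted p = 0.0185), Notch4 (-0.66 ± 0.11, adjusted p = 0.00378), Jag1 (-0.42 ± 0.13, adjusted p = 0.0490) and Notch2 (-0.36 ± 0.11, adjusted p = 0.0461). For these 4, and for Notch1 and Dll4, all 3 libraries of the line lay below all 3 wild type libraries, as did those of 22.8% of all genes tested. Dll4, whose span is shared with Gm14207, missed the threshold (-0.61 ± 0.21, adjusted p = 0.0696), and passed it without wild type hypoxia replicates 1 or 2, β-arrestin 1 -/- hypoxia replicate 2 or replicate 2 of the labelled line (adjusted p of 0.0280 to 0.0498). The members' median was -0.33, against 0.04 over all genes. Notch4 was called in 18 of 18 fits with 1 library left out and Jag2 in 15, being lost without wild type replicate 1 and without replicates 0 or 1 of the line (adjusted p of 0.00308 to 0.0720). Jag1 was called in 5 and Notch2 in 6 of the 18, and each call was lost without any 1 of the 6 normoxia libraries of wild type and β-arrestin 1 -/- mice, without normoxia replicates 0 or 1 or hypoxia replicates 1 or 2 of the labelled line, and without β-arrestin 1 -/- hypoxia replicate 1 (adjusted p up to 0.129 and 0.201). Jag1 was also lost without normoxia replicate 2 or hypoxia replicate 0 of the labelled line, and Notch2 without wild type hypoxia replicate 1. With the tissue score as a covariate edgeR called 0 of 10 members, while the log2 differences were -0.90 for Jag2, -0.60 for Notch4, -0.46 for Jag1 and -0.26 for Notch2 (adjusted p of 0.207 to 0.486). The score separated these normoxia groups too, so the covariate and the genotype cannot be told apart there.

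In hypoxia 0 of 10 members differed between the labelled β-arrestin 2 -/- line and wild type by edgeR, where 0.923% of all genes were called. DESeq2 also called 0, and 2 members had an unadjusted p under 0.05 in edgeR: Notch4 (0.30 ± 0.11, adjusted p = 0.250) and Dll4 (0.48 ± 0.21, adjusted p = 0.376), against 11.7% of all genes. The 95% interval of the difference was -0.38 to 0.41 for Jag2 and -0.31 to 0.47 for Hey2, so differences within those bounds are not excluded. All 95% intervals given here use the SE with a normal approximation, so they are narrower than the F-test would give. Notch4 lies on chromosome 17 from 34564295 to 34588543 (mm10), and the genes around it also differed between these lines. Of 108 tested genes that start within 1 Mb of it, 14 were higher and 2 lower in normoxia in the labelled β-arrestin 2 -/- line, and 6 were higher and 7 lower in hypoxia, beside the 9.49% and 0.923% of all genes called in these comparisons. The part of these neighbours' differences in the Notch4 result was not tested. Notch3 lies on the same chromosome from 32120893 to 32166852. Of its 34 tested neighbours 2 were higher and 2 lower in normoxia, a share close to that of all genes. In hypoxia 0 of the 34 were higher and 2 lower, beside 0.923% of all genes called.

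β-Arrestin 1 -/- mice differed from wild type in 0 of 10 members in normoxia by edgeR, where 0.221% of all genes were called, and in 0 of 10 in hypoxia, where 0.201% were called. DESeq2 called 0 in both. In normoxia 2 members had an unadjusted p under 0.05, Notch4 (-0.34 ± 0.11, adjusted p = 0.289) and Dll4 (-0.50 ± 0.21, adjusted p = 0.486), against 8.71% of all genes. The libraries of Notch1, Notch4, Dll4 and Hey1 lay below all wild type libraries, as did those of 11.5% of all genes. In hypoxia 1 member had an unadjusted p under 0.05, Hey2 (0.44 ± 0.20, adjusted p = 0.430), against 11.3% of all genes.

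The difference of the hypoxia responses was tested directly, on the same libraries again. Between the labelled β-arrestin 2 -/- line and wild type it passed the threshold for 3 of 10 members, all with a more positive response in the line, where 6.05% of all genes were called, 3.49% more positive and 2.56% more negative. These were Dll4, with the limit of its shared span (difference of log2 changes 1.09 ± 0.29, adjusted p = 0.0422), Notch4 (0.96 ± 0.15, adjusted p = 0.00487) and Jag1 (0.65 ± 0.18, adjusted p = 0.0450). Jag2 missed the threshold (0.91 ± 0.29, adjusted p = 0.0680), and passed it without β-arrestin 1 -/- hypoxia replicates 0 (adjusted p = 0.0485) or 2 (adjusted p = 0.0165). It also passed with DESeq2 (adjusted p = 0.0253), with only the groups compared (adjusted p = 0.0356) and without the 2 libraries of lowest total (adjusted p = 0.0310). Hey2 (0.29 ± 0.29, adjusted p = 0.528) and Notch3 (0.14 ± 0.28, adjusted p = 0.763) had 95% intervals of -0.28 to 0.86 and -0.40 to 0.68. Of the comparisons of Notch4 between the line and wild type, the lower level in normoxia passed the test and the difference in hypoxia did not. For Dll4 the wild type groups stood apart, while the 95% interval of the change in the labelled line was -0.37 to 0.45. Notch4 was called in 18 of 18 fits with 1 library left out, Dll4 in 8 and Jag1 in 4. The Dll4 and Jag1 calls were both lost without wild type normoxia replicates 0 or 1, without wild type hypoxia replicate 2, without β-arrestin 1 -/- normoxia replicates 1 or 2, and without labelled β-arrestin 2 -/- normoxia replicates 0 or 1 or any 1 hypoxia library of that line (adjusted p up to 0.0949 and 0.105). The Jag1 call was also lost without wild type hypoxia replicate 1, β-arrestin 1 -/- normoxia replicate 0, β-arrestin 1 -/- hypoxia replicate 1 and labelled β-arrestin 2 -/- normoxia replicate 2. With the tissue score as a covariate edgeR called 0 of the 3, while the differences were 0.90 for Notch4 (adjusted p = 0.0511), 0.68 for Jag1 (adjusted p = 0.167) and 0.92 for Dll4 (adjusted p = 0.213). The score separated the wild type groups that enter this difference, so the covariate and the response cannot be told apart there. Between β-arrestin 1 -/- mice and wild type 0 of 10 members passed by edgeR, where 0% of all genes were called, and DESeq2 also called 0 members. An unadjusted p under 0.05 was reached by 1 member, Dll4 (0.92 ± 0.29, adjusted p = 0.807), and by 898 of all genes (5.84%).

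Because FPKM is per length, the levels can also be read as the make-up of each class. Among the 4 receptors of wild type lung, Notch4 held 40.9 ± 1.36% of the summed level in normoxia (SD, n = 3) and 34.3 ± 1.87% in hypoxia, and Notch3 18.9 ± 1.06% and 31.2 ± 2.56%, while the sum was 108 ± 3.37 and 109 ± 5.83 FPKM. The summed receptor level in the labelled line was 82.2 ± 9.79 in normoxia and 123 ± 6.89 in hypoxia, the lowest and the highest of the 6 groups. Among the 3 ligands Dll4 held 60.3 ± 3.44% in wild type normoxia and 36.0 ± 11% in hypoxia, and Jag2 19.0 ± 2.63% and 41.2 ± 9.70%. Dll4 in the labelled line went from 60.3 ± 4.67% to 42.7 ± 7.25% and Jag2 from 15.7 ± 1.73% to 34.6 ± 7.08%. A lower share of Dll4 thus stood beside a higher Jag2 level in both wild type and the line. The Dll4 level itself was lower in wild type and alike in the line. Among the 3 effectors Hey1 held from 65.7 ± 9.0% (wild type hypoxia) to 82.6 ± 1.93% (wild type normoxia), and Hey2 from 2.77 ± 0.26% (labelled β-arrestin 2 -/- normoxia) to 7.79 ± 1.09% (β-arrestin 1 -/- hypoxia). These shares are a description and were not tested.

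**Figure D3:**
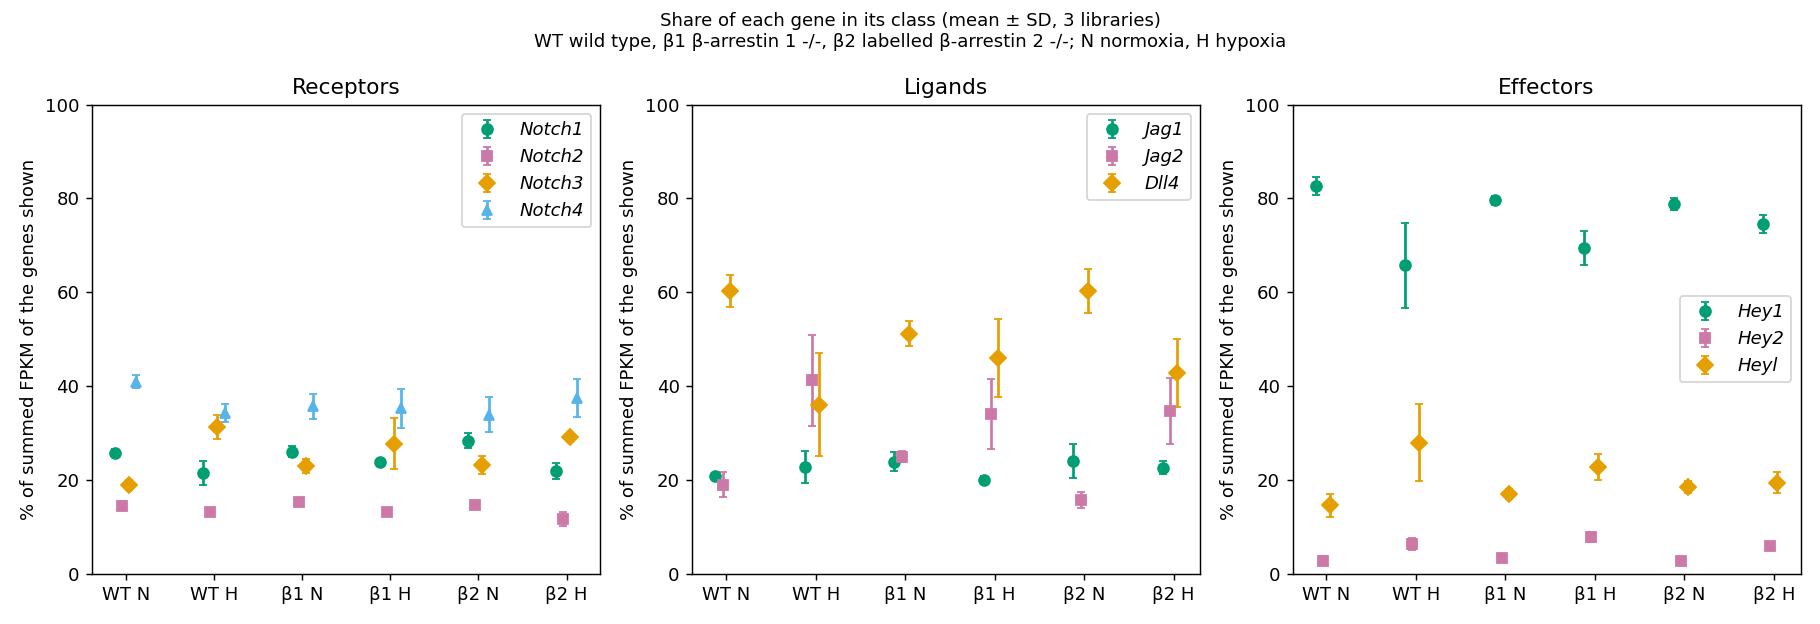
Share of each gene in the summed FPKM of its class, in percent, mean and SD of 3 libraries in each group. Dll4 goes from 60.3% of the ligands to 36.0% with hypoxia in wild type, as Jag2 goes from 19.0% to 41.2%.

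Across the 18 libraries some members varied together. Pearson's r of log2 CPM (fragments scaled to library total) was 0.82 for Jag2 and Hey2, 0.79 for Notch3 and Jag2, 0.79 for Notch1 and Notch2, and 0.78 for Dll4 and Hey1. The lowest was -0.58, for Dll4 and Heyl. After the group means were taken off, r was 0.88 for Notch1 and Notch2, 0.63 for Dll4 and Hey1, 0.54 for Jag2 and Hey2, 0.52 for Notch3 and Jag2, and -0.14 for Dll4 and Heyl. Notch1 and Notch2 thus varied together among libraries of the same group. The gene most like each member among all tested genes, by r over the same 18 libraries, was Acvr2a for Notch1 (0.92), Yod1 for Notch2 (0.95), Adcy3 for Notch3 (0.94) and Tbc1d22a for Notch4 (0.91). For the ligands it was Zfp74 for Jag1 (0.92), Vangl1 for Jag2 (0.93) and Pydc3 for Dll4 (0.92), and for the effectors Armcx1 for Hey1 (0.83), Sema3c for Hey2 (0.93) and Mal for Heyl (0.90). Armcx1 and Pydc3 were among the 3 nearest genes of both Dll4 and Hey1. The points share 6 groups and their library depths, so these values describe the libraries.

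**Figure D4:**
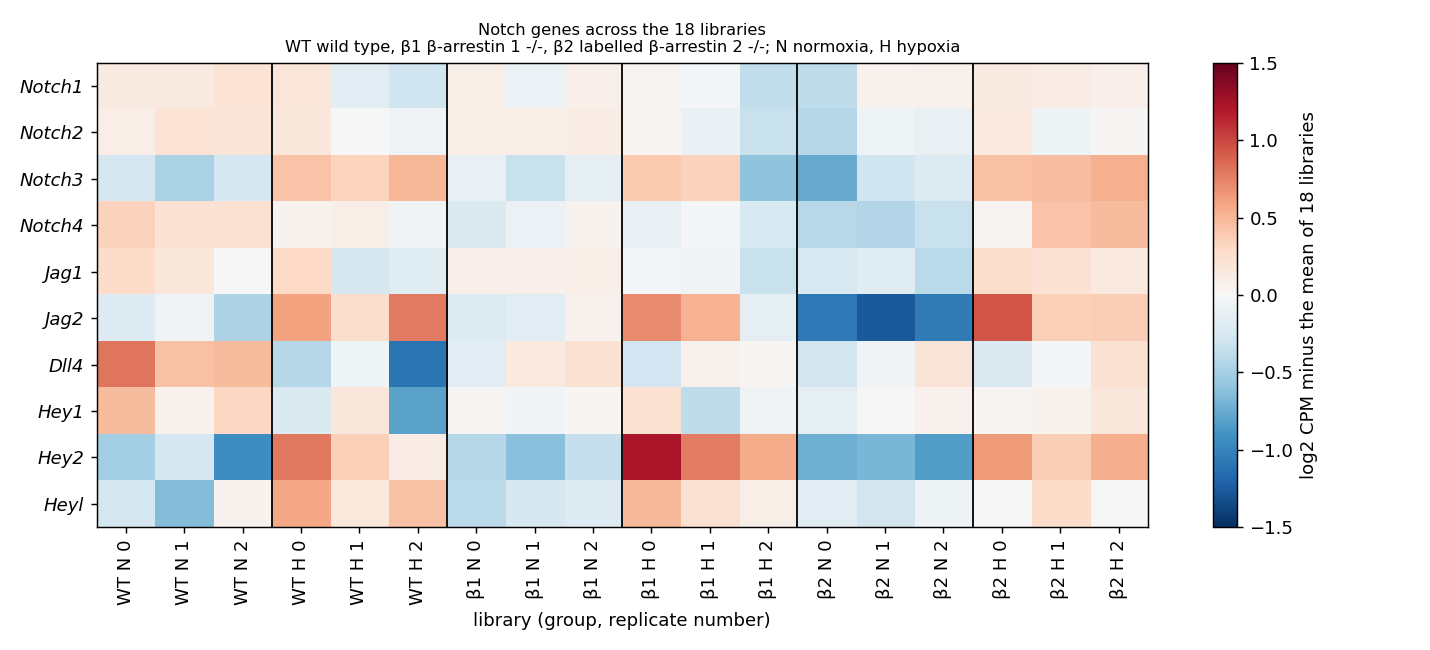
Log2 CPM of each Notch gene in each of the 18 libraries, relative to the gene's mean over all 18. Hey2 is above its mean in all 9 hypoxia libraries and below it in all 9 normoxia libraries, and Notch3 is low in replicate 2 of β-arrestin 1 -/- hypoxia.

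Of 51 other listed genes of the Notch pathway 50 were in the table and 46 were tested. In wild type hypoxia 1 of these rose and 0 fell, with a median log2 change of 0.02, where 2.85% of all genes rose and 1.92% fell. This was Dtx1, a Deltex ubiquitin ligase that binds Notch, at 0.93 ± 0.12 FPKM in normoxia and 2.23 ± 0.32 in hypoxia (log2 change 1.27 ± 0.19, adjusted p = 0.00161). Dtx1 also rose in β-arrestin 1 -/- mice (0.75 ± 0.19, adjusted p = 0.0418) and in the labelled β-arrestin 2 -/- line (0.88 ± 0.19, adjusted p = 0.00496), so that it and Hey2 were called in all 3 genotypes. Of the other tested target genes 0 of 5 passed by edgeR in each genotype, with 1 at an unadjusted p under 0.05 in each. Hes1, the classical Notch target repressor, stood at 63.1 ± 16.6 FPKM and 87.2 ± 11.2 in wild type (0.47 ± 0.18, adjusted p = 0.165), and Nrarp, a feedback inhibitor of the Notch complex, at 34.7 and 33.0 (-0.07 ± 0.13, adjusted p = 0.851).

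In β-arrestin 1 -/- mice Dtx1 rose and 2 of the 46 fell: Dll1, a Delta-like ligand (-0.76 ± 0.15, adjusted p = 0.0124), and Neurl1b, a ubiquitin ligase of Notch ligands (-0.38 ± 0.09, adjusted p = 0.0351). Of all genes, 1.84% rose and 1.11% fell there. Among the 46, the labelled line had 9 that rose and 7 that fell, with a median of 0.05 against -0.04 over all genes, where 11.1% of all genes rose and 10.8% fell. By smallest p the first were Numb, an inhibitor of Notch (0.55 ± 0.09, adjusted p = 0.00142), Dtx1, Spen, a corepressor that acts with RBPJ (0.81 ± 0.18, adjusted p = 0.00644), and Ep300, a histone acetyltransferase of the active complex (0.72 ± 0.16, adjusted p = 0.00652). Rbpjl, a relative of RBPJ, fell (-1.44 ± 0.33, adjusted p = 0.00748), and so did Neurl3, a Neuralized-family ubiquitin ligase (-1.13 ± 0.27, adjusted p = 0.00839). By class, 3 of 10 genes of receptor cleavage rose and 1 fell, 3 of 8 nuclear genes rose and 2 fell, 3 of 14 genes of ubiquitination and trafficking rose and 3 fell, and 0 of 5 glycosylation genes were called, with 1 at an unadjusted p under 0.05. These classes hold few genes, and several of the counts are near those shares of all genes. Inhibitors and activators of the pathway were thus among the genes that rose. In normoxia Numb was lower (-0.48 ± 0.09, adjusted p = 0.00933) and Neurl3 higher (0.97 ± 0.26, adjusted p = 0.0340) in that line than in wild type. The difference of the hypoxia responses passed for 4 of the 46, where 6.05% of all genes passed: Numb (0.56 ± 0.13, adjusted p = 0.0259), Ep300 (0.82 ± 0.23, adjusted p = 0.0456), Mfap5 (-1.08 ± 0.26, adjusted p = 0.0267) and Neurl3 (-1.90 ± 0.37, adjusted p = 0.0124).

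**Figure D5:**
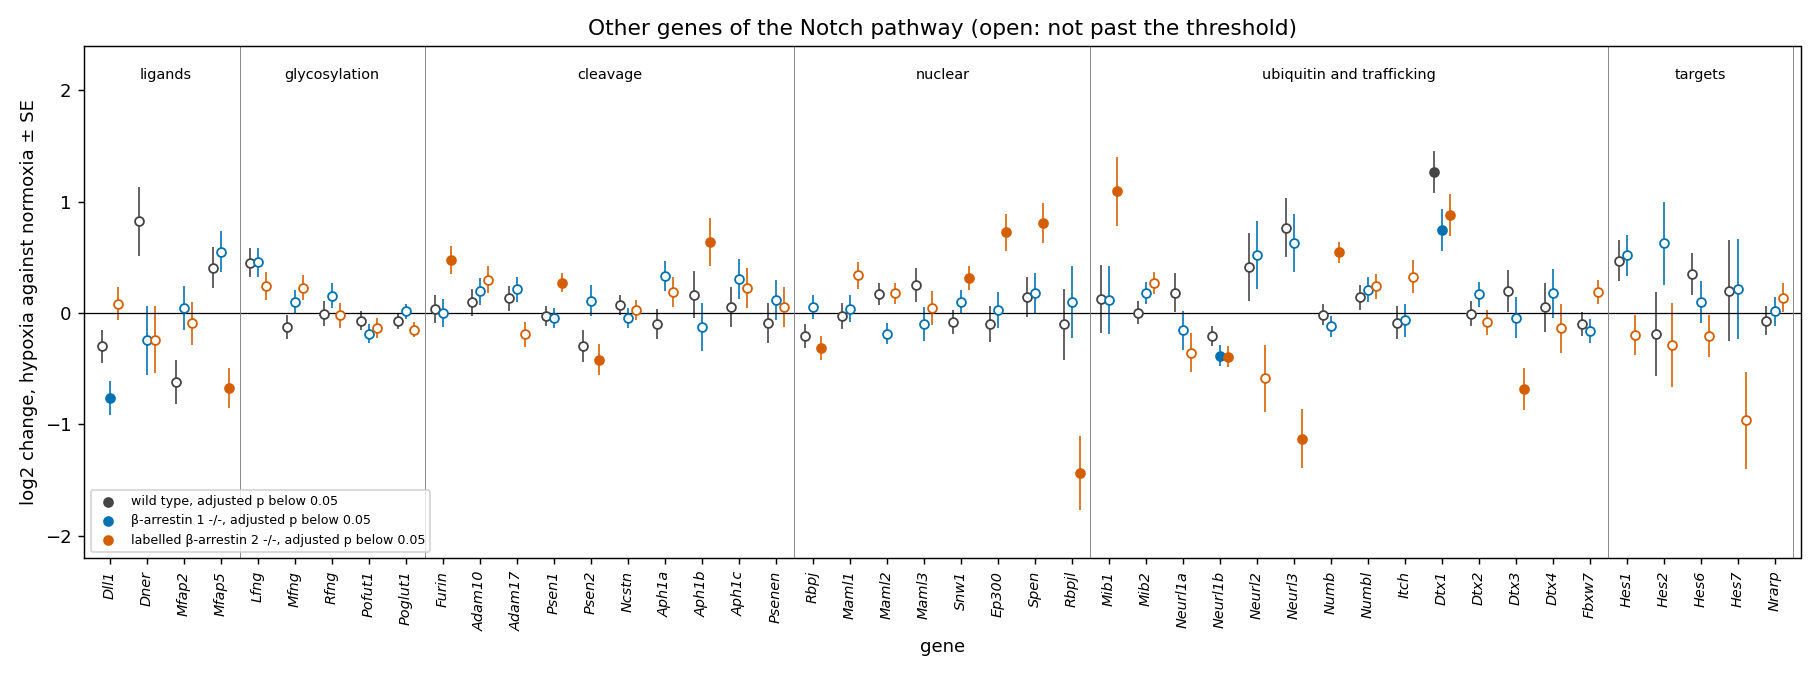
Log2 change with hypoxia (edgeR, with SE) of the 46 other tested genes of the Notch pathway in the 3 genotypes, grouped by role, with filled points past an adjusted p of 0.05. Dtx1 has filled points in all 3 genotypes, and 16 genes have one in the labelled β-arrestin 2 -/- line.

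Markers of the vessel cells that hold these genes were read beside them, in comparisons where 2.85% of all genes rose and 1.92% fell in wild type, 1.84% and 1.11% in β-arrestin 1 -/- mice, and 11.1% and 10.8% in the labelled line. The summed level of 12 pan-endothelial genes ran from 2472 to 2930 FPKM in wild type normoxia and from 2401 to 2916 in hypoxia, which overlapped, with 0 of 12 called by edgeR and 2 at an unadjusted p under 0.05. Pecam1 stood at 351 and 343 FPKM. Of 10 arterial endothelial genes 3 rose, Sox17 (1.09 ± 0.12, adjusted p = 9.28e-05), Gja4 (1.16 ± 0.21, adjusted p = 0.00532) and Unc5b (1.07 ± 0.15, adjusted p = 0.000815), and 1 fell, Efnb2 (-0.85 ± 0.15, adjusted p = 0.00579). The sum of the arterial genes ran from 338 to 371 in normoxia and from 388 to 391 in hypoxia, without overlap. The sum of 11 capillary genes ran from 1944 to 2137 in normoxia and from 1268 to 1378 in hypoxia, without overlap, with 1 of 11 higher and 2 lower. Of 12 pericyte genes 4 rose and 0 fell, and their sum ran from 343 to 455 in normoxia and 519 to 578 in hypoxia. Of 10 smooth muscle genes 0 were called by edgeR, with 4 at an unadjusted p under 0.05 and sums of 534 to 623 and 628 to 877. Of 6 venous genes 2 fell, with sums of 269 to 303 in normoxia and 184 to 268 in hypoxia, without overlap. Of 5 tested lymphatic genes 3 rose. Beyond the lists of the tissue score, the sums of fibroblast genes (3163 to 3504 in normoxia and 3877 to 4251 in hypoxia) and of alveolar type 1 cell genes (4369 to 5078 and 3974 to 4259) did not overlap either. Of the pan-endothelial genes 4 of 12 rose in the labelled line, among them Pecam1 (0.51 ± 0.11, adjusted p = 0.00457). The sums of the 12 ran from 2322 to 2604 in normoxia and from 2447 to 2911 in hypoxia. Arterial sums of the labelled line, 280 to 352 in normoxia and 344 to 375 in hypoxia, overlapped. So did its capillary sums, 1581 to 2006 and 1523 to 1757. In that line 4 of 12 pericyte genes rose, with sums of 467 to 507 in normoxia and 563 to 609 in hypoxia, and 4 of 10 smooth muscle genes fell, with sums of 827 to 1624 and 626 to 727. Other lists whose sums did not overlap there were fibroblast genes (2751 to 3949 in normoxia and 4862 to 5342 in hypoxia, 3 of 9 genes higher and 4 lower) and venous genes (176 to 210 and 218 to 256, 2 of 6 higher and 1 lower). Sums were lower in hypoxia for ciliated cell genes (1137 to 1507 and 814 to 867, 4 of 8 lower) and mesothelial genes (188 to 272 and 85.2 to 122, 4 of 5 lower). Of the pericyte genes 2 of 12 rose in β-arrestin 1 -/- mice, with sums of 408 to 445 and 526 to 858, and 0 of 12 pan-endothelial genes were called, with 2 at an unadjusted p under 0.05 and sums of 2679 to 2905 and 3086 to 4283. The arterial sums of β-arrestin 1 -/- mice, 319 to 355 in normoxia and 418 to 472 in hypoxia, did not overlap. Nor did their fibroblast sums, 3582 to 3882 and 4083 to 6385. Of the genes of the vessel lists, Ccl21a of the lymphatic list was the one listed at 0 in all libraries of a group. The part of these markers in the changes of the 10 Notch genes was not tested.

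The authors' deposited table of Cuffdiff comparisons, made from the same libraries, was read for the members with a q-value under 0.05. It called 6 members in wild type hypoxia, the 5 above and Hey1, lower (q-value 0.0120). For β-arrestin 1 -/- hypoxia the authors' deposited table called 3, Jag2 (0.0226), Hey2 (0.00124) and Heyl (0.0113), all higher. With hypoxia in the labelled line the authors' deposited table called 5, which were the 5 called above, and 4 lower than wild type in normoxia, which were Notch4, Jag1, Jag2 and Dll4, without Notch2. The authors' deposited table also called Dll4 lower in β-arrestin 1 -/- mice in normoxia (q-value 0.0167) and higher in the labelled β-arrestin 2 -/- line in hypoxia (0.0150), each against wild type.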

How the data were processed

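Poly(A) RNA of whole lung was sequenced in 18 libraries, per the labels' protocols, and the kit keeps no strand. FastQC, TopHat and Cuffdiff were used on mm10, per the submitters' processing notes. Which versions and which annotation were used is not given here. Estimated counts (fragments for each gene in each library, not normalized, 93.3% of them whole) and normalized FPKM values were deposited. Their table of comparisons gave the q-value and, for direction, the sign of the test score that the authors deposited.

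Of 23356 features, 5 with the status HIDATA were left out. After rounding, estimated counts went into 1 edgeR 4.0.16 fit of all 18 libraries (R 4.3.3), with filterByExpr by group, TMM factors, quasi-likelihood F-tests and Benjamini-Hochberg adjustment over 15388 genes (threshold 0.05). Replicates were kept apart. FPKM values were averaged without a test. The scripts were tested on simulated data. Alternatives used DESeq2 1.42.0, edgeR with DESeq2's size factors or with the low counts kept, limma 3.58.1 on log2(FPKM + 1) or log2(FPKM + 0.1), where log2 values come from the deposited FPKM and the minimum was 1 FPKM in 3 libraries or absent, a fit of the compared groups alone, a replicate block, a tissue score covariate, omission of the 2 libraries of lowest total, and omission of each single library. Summing Dll4 and Gm14207 was chosen after seeing the data. Promoters are from RefSeq (GRCm38.p6), exon overlaps from GENCODE M21, and figures from matplotlib.

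Named are the 10 members, both arrestin genes, up to 6 called genes of the other Notch lists per comparison by smallest p, the genes most like each member, and cell type markers set beside a result. Gm14207, Hes1 and Nrarp were named after their values were seen. The members and lists were chosen with earlier results of these data known. 1 listed pathway gene is not reported here.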

Additional observations from a re-analysis of the deposited data

Results flagged for a closer look

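The hypoxia response of 3 members differed between the labelled β-arrestin 2 -/- line and wild type by the test of the difference itself (edgeR). For Notch4 the difference of log2 changes was 0.96 ± 0.15 (SE, adjusted p = 0.00487): its libraries were lower with hypoxia in wild type and higher in the line, in 3 of 3 libraries on each side. The rise in the line passed the test and the wild type change did not (adjusted p = 0.245). For Dll4, whose span is shared with Gm14207, it was 1.09 ± 0.29 (adjusted p = 0.0422). Only its fall in wild type passed the test, and in both other genotypes Dll4 overlapped between exposures. The Dll4 difference of β-arrestin 1 -/- mice from wild type was near that of the line, at 0.92 ± 0.29, but did not pass (adjusted p = 0.807). For Jag1 the difference between the line and wild type was 0.65 ± 0.18 (adjusted p = 0.0450). Only the rise of Jag1 in the line passed the test. Of these, the Notch4 call was made in all 18 fits that left out 1 library and the calls of Dll4 and Jag1 in 8 and 4. With the tissue score as a covariate each missed the threshold by edgeR (adjusted p of 0.0511 for Notch4, 0.213 for Dll4 and 0.167 for Jag1).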

How the results depend on the processing

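Over all alternatives 2610 log2 changes of members were recomputed. Of these 2436 kept their direction and side of the threshold, 111 lost a call, 18 gained one, 0 reversed a call, and 45 changed sign without a call. Most of the recomputed changes had no call to lose in the main fit, so the 111 are a larger share of the calls than of this total. The 5 calls of labelled β-arrestin 2 -/- hypoxia were 4 to 5 with 1 library left out. For wild type hypoxia (5 calls) the count was 2 with only the groups compared, 3 in each of the 3 limma fits, 0 with the tissue score and 1 to 5 with 1 library left out, the lowest without wild type normoxia replicate 0. For β-arrestin 1 -/- hypoxia (1 call) it was 2 with DESeq2, 0 with only the groups compared, 2 without the 2 libraries of lowest total and 1 to 3 with 1 library left out, the highest without hypoxia replicate 2. For labelled β-arrestin 2 -/- against wild type in normoxia (4 calls) it was 5 with DESeq2 and with only the groups compared (Dll4 gained, adjusted p = 0.0312 and 0.0298), 2 without a filter, 2 in limma without a filter, 0 with the tissue score and 1 to 5 with 1 library left out. For the difference of the hypoxia responses (3 calls) it was 4 with DESeq2 and with only the groups compared (Jag2 gained), 1 in limma without a filter, 0 with the tissue score and 1 to 4 with 1 library left out. The cause was not tested. The 4 comparisons with 0 calls stayed at 0 in each fit.

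With the replicate number as a block, 4 members were called in wild type hypoxia (Notch3 lost, adjusted p = 0.0624) and 3 in labelled β-arrestin 2 -/- normoxia (Notch2 lost, adjusted p = 0.0616), and no other call of a member changed. The libraries share only a number: same-numbered libraries had correlated deviations over 0.1 in 8 of 15 pairs for replicate 0, 3 of 15 for replicate 1 and 3 of 15 for replicate 2 (r of -0.46 to 0.47). Hey2, with 99 to 448 fragments a library, is the member most limited by depth.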
